A study of Homo sapiens with 9 samples.

Results

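The oncofetal RNA-binding and chromatin genes LIN28A, LIN28B, HMGA1, HMGA2, IGF2BP1, IGF2BP2 and IGF2BP3, together with the growth factor gene IGF2 and its neighbour H19, were followed across all libraries that had gene counts. The 9 genes were chosen by name, and all 9 were found among the 26625 genes of the count tables. Where a gene had several RefSeq transcript entries, the entry with most reads was used. The study prepared sequencing libraries from total RNA with a method called CLT-seq, in which an adaptor-carrying oligo(dT) primer starts cDNA synthesis on the poly(A) tail. It compared primers that end in T alone with primers that place anchor bases, the first of them not T, behind 18 T. The former were T12, T18 and T30, with 12, 18 and 30 T. The latter were T18V, T18VN and T18VNN, with 1, 2 and 3 anchor bases. T12 was also used in a second cell line. HEK293T cells derive from human embryonic kidney and are transformed, and A549 cells are lung epithelial cells from a carcinoma. Both lines are labelled wild type, both were grown in medium with 10% serum, and no treatment was applied. Gene counts were available for 7 of the 9 libraries, namely 1 HEK293T library per primer (T12 replicate 1) and 1 A549 library (T12 replicate 2). There is thus 1 library per primer and line, and the labels do not say whether the primers shared an RNA preparation.

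LIN28A and LIN28B are RNA-binding proteins with a cold-shock domain that hold back the maturation of let-7 microRNAs. The let-7 microRNAs in turn repress messages that carry matching sites, among them LIN28 itself, HMGA2 and the IGF2BP genes, so that LIN28 and let-7 form a double-negative loop that switches between fetal and adult cells. HMGA1 and HMGA2 are small AT-hook proteins that bend DNA in chromatin, and IGF2BP1 to IGF2BP3 are KH-domain proteins that bind and stabilise messages including that of IGF2. IGF2 is a fetal growth factor expressed from the paternal allele, and H19 is a non-coding RNA expressed from the maternal allele of the same imprinted cluster. Many of these genes are quiet in adult tissues, and several of them return in tumours.

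One sequence feature of these genes is the let-7 seed match. The genes were chosen by name, but LIN28, HMGA2 and the IGF2BP genes are known let-7 targets. Matches in them are therefore a description and not an independent result. In the RefSeq microRNA table (GRCh38.p14), 11 mature microRNAs from 14 loci shared the seed GAGGUAG at bases 2 to 8. These 5 are shown because let-7a has most loci and because the other 4 have a locus inside a host transcript that was counted. Capitals mark the seed.

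hsa-let-7a-5p: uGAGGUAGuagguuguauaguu

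hsa-let-7b-5p: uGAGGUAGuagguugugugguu

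hsa-let-7c-5p: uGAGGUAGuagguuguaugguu

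hsa-let-7f-5p: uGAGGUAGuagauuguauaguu

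hsa-miR-98-5p: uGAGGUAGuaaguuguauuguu

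Transcripts of GENCODE release 29 (GRCh38) were searched on the sense strand for the 7-base complement of that seed, CTACCTC, and for the 8-base form with a further A, CTACCTCA, which always contains the 7-base form. Each gene was represented by the transcript nearest in length to its count entry, within 20%, which gave a transcript for all 9 genes and for 21772 genes in all. A 7-base match was present in 7 of the 9 genes and in 17.5% of all genes. An 8-base match was present in 6 of the 9 and in 6.66% of all genes. LIN28B and HMGA2 had 5 matches each, and IGF2BP1 had 4. Among transcripts of like length, at least as many matches were found in 0.0763% for LIN28B, 0.0295% for HMGA2 and 0.755% for IGF2BP1. These shares count the gene's own transcript, and for HMGA2 the share is its own transcript alone. LIN28A, HMGA1, IGF2BP2 and IGF2BP3 had 1 match each, a count reached by 25.1%, 14.4%, 23% and 25.8% of transcripts of like length. IGF2 and H19 had none. The first 3′ UTR match of each gene, preferring an 8-base match, is shown with the bases before it, and capitals mark the match.

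LIN28A: ttggagtgcacagcctattgaaCTACCTCA

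LIN28B: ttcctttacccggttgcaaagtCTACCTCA

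HMGA1: tccatttttcctctgttcacaaaCTACCTC

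HMGA2: agggggcgccaacgttcgatttCTACCTCA

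IGF2BP1: gcaatgctgtgtgcgaagtaaaCTACCTCA

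IGF2BP2: cgagaaaaacacacagaagaagCTACCTCA

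IGF2BP3: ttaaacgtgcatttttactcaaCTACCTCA

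In GRCh38 these stretches lie at chr1:26427341-26427370 on the plus strand (LIN28A), chr6:105078805-105078834 plus (LIN28B), chr6:34245821-34245850 plus (HMGA1), chr12:65963291-65963320 plus (HMGA2), chr17:49051054-49051083 plus (IGF2BP1), chr3:185644220-185644249 minus (IGF2BP2) and chr7:23311795-23311824 minus (IGF2BP3). Of all 18 matches, 1 in LIN28B was in the coding sequence and 1 in HMGA2 in the 5′ UTR, and the others were in 3′ UTRs. A match describes the letters of the transcript and does not show binding, and mature microRNAs were not measured.

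**Figure D1:**
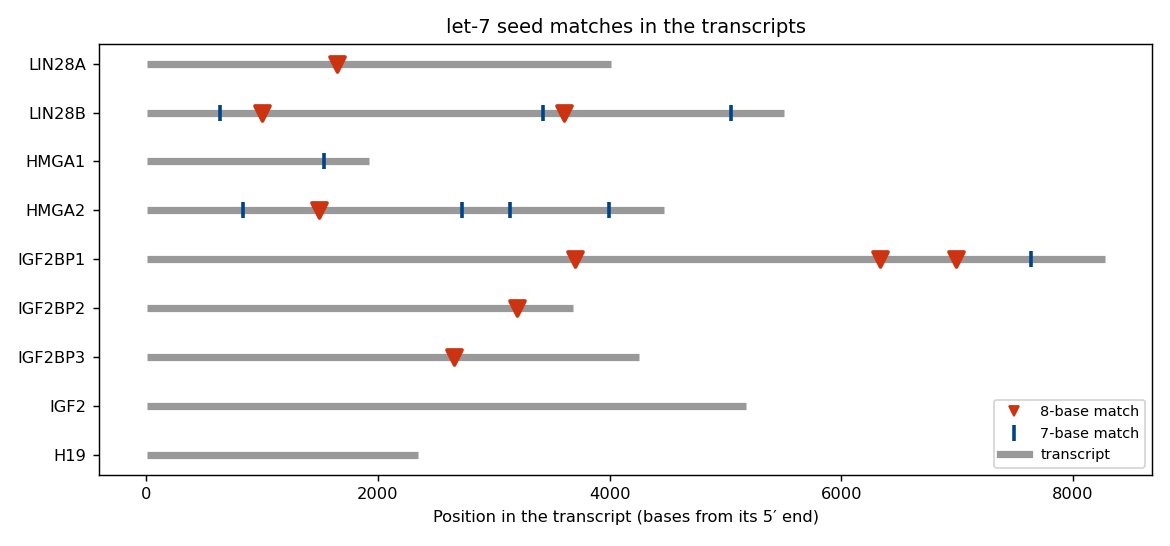
let-7 seed matches along the transcript used for each gene, drawn to scale in bases from the 5′ end; triangles are 8-base matches and ticks are 7-base matches. LIN28B and HMGA2 carry 5 matches each, and IGF2 and H19 carry none.

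An internal run of A can also serve an oligo(dT) primer as a start. A run of 12 or more A was present in the transcripts of 4 of the 9 genes (IGF2BP2 with 20, IGF2BP1 with 13, and HMGA2 and IGF2BP3 with 12 each) and in 8.41% of all genes. Long transcripts hold such runs more often: among transcripts of like length the share was 11.4% for IGF2BP2, 28.8% for IGF2BP1, 15.1% for HMGA2 and 14% for IGF2BP3. The part of such runs in the counts was not tested.

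Library totals were 7491993 to 25578543 reads, of which 11.7% to 37.5% fell on the kept genes (1498188 reads in A549 and 2215948 to 5200792 in HEK293T). Levels are given as CPM, counts per 1e6 reads on kept genes. The detection floor was set at 3 reads, which is 0.577 CPM for T18, the deepest library, and 2.00 CPM for A549. Deposited coverage curves run over percentiles of the transcript body. For HEK293T T12, T18, T30 and T18V the last 20 percentiles held 59.2% to 64.7% of the signal, against 39.9% for T18VNN. The first 20 percentiles held 2.61% to 3.16% for those libraries and 33.75% for T18VNN. No curve was used for T18VN or A549. In the T18 library 1 gene took 7.20% of the reads on genes, against 1.37% to 2.15% for the top gene elsewhere. Of 11 A549 markers, 10 could be compared and all 10 were at least 2-fold higher in A549. The remaining marker, EPCAM, was not read in A549: it had 0 reads in both T12 libraries and at most 1.39 CPM in HEK293T. The 9 HEK293T markers summed to 4570 to 6307 CPM in HEK293T and 341 CPM in A549. AMOT (2902 CPM) and NEFM (1379 CPM) held most of the 5214 CPM with HEK293T T12. INA, GATA2, CDH2 and LHX1 among the 9 were higher in A549 than in HEK293T T12, LHX1 by less than 2-fold. Of 8 markers of cells that were not cultured, 4 had no read in any library, and the sum of the list was 9.80 to 33.4 CPM in HEK293T and 38 CPM in A549, most of it COL1A1.

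LIN28B was the LIN28 gene of HEK293T. It was read at 61.2 CPM with T12, 72.9 with T18 and 77.2 with T30, then 33.1 with T18V, 71 with T18VN and 50.3 with T18VNN, and had 0 reads in A549. All 6 HEK293T libraries were above the A549 library, and T18V was the lowest of them. Against HEK293T T12 (200 reads), LIN28B was at least 30.6-fold lower in A549, taking the floor of 3 reads for the A549 value. The gene has 1 entry in the tables (chr6:105404923-105531207, plus strand, hg19), so no choice between entries enters this value. With 1 library per line, this and every other difference between A549 and HEK293T has no replicate check and no test, and fewer expressing cells, less RNA per cell and a difference between the 2 library preparations cannot be told apart.

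LIN28A, the paralogue on chromosome 1 (chr1:26737259-26756219, plus strand, hg19), was read in 1 library only. It had 11 reads (2.12 CPM) with T18 and 0 reads with the other 5 HEK293T primers and in A549, where 0 reads allows up to 0.670 to 2.00 CPM. No fold is given for it, since both T12 libraries were at 0.

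The HMGA genes were read in all 7 libraries. HMGA1 (chr6:34204577-34214008, plus strand, hg19) was at 148 CPM with T12, 95.4 with T18 and 104 with T30, then 336 with T18V, 207 with T18VN and 139 with T18VNN, and at 96.8 CPM in A549. The 2 highest values were those of T18V and T18VN, and the A549 value lay just above the T18 value, inside the HEK293T range. Against HEK293T T12, HMGA1 was 1.53-fold lower in A549, with a 95% exact interval of 1.26 to 1.85 from the read counts. This interval and those that follow hold counting error alone, because PCR copies of 1 molecule could not be recognised. Its 12 entries had the same counts in every library.

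HMGA2 (chr12:66218240-66360071, plus strand, hg19), with 5 let-7 matches, was the steadier of the pair in HEK293T. It was at 111 CPM with T12, 128 with T18 and 105.6 with T30, then 163 with T18V, 139 with T18VN and 173 with T18VNN, and at 56.1 CPM in A549. The A549 value was below all 6 HEK293T values, and each anchored library was above each unanchored one. Against HEK293T T12 it was 1.98-fold lower (95% exact interval 1.56 to 2.54), and against the HEK293T median of 134 CPM it was 2.39-fold lower. Of its 5 entries, which start at the same base, the one counted here held 3051 reads over the 7 libraries and the other 4 held 0 to 9. The shorter entries end upstream, so nearly all HMGA2 reads lay outside their exons.

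Among the IGF2BP genes, paralogues with the same domain layout, 1 was lower in A549, 1 was higher and 1 lay inside the HEK293T range. IGF2BP1 (chr17:47074774-47133507, plus strand, hg19) was at 280.5 CPM with T12, 296 with T18 and 411 with T30, then 377 with T18V, 241 with T18VN and 331 with T18VNN, and at 105 CPM in A549. The A549 library was below all 6 HEK293T libraries, the lowest of which was 2.29 times its level. Against HEK293T T12, IGF2BP1 was 2.66-fold lower in A549 (95% exact interval 2.24 to 3.17).

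IGF2BP3 (chr7:23349828-23509995, minus strand, hg19) went the other way. It was at 12.9 CPM with T12, 47.3 with T18 and 41.5 with T30, then 24.5 with T18V, 16.1 with T18VN and 22.2 with T18VNN, and at 82.1 CPM in A549. A549 was above all 6 HEK293T libraries, of which T12 was the lowest and T18 the highest. The size of the difference follows the comparator: IGF2BP3 was 6.38-fold higher in A549 than in HEK293T T12 (95% exact interval 4.46 to 9.29), 3.51-fold higher than the HEK293T median and 1.74-fold higher than T18.

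IGF2BP2 (chr3:185360919-185542844, minus strand, hg19), the paralogue that adult tissues keep most, was at 82.1 CPM with T12, 91.7 with T18 and 115 with T30, then 84.7 with T18V, 69.9 with T18VN and 80.6 with T18VNN, and at 106 CPM in A549. The A549 value lay inside the HEK293T range, between T18 and T30. Against HEK293T T12 it was 1.29-fold higher (95% exact interval 1.06 to 1.58).

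IGF2 (chr11:2150342-2160204, minus strand, hg19) was the gene that varied most between the primers among the 7 that passed the filter on low counts. It was at 74.4 CPM with T12, 21.7 with T18 and 9.93 with T30, then 23.8 with T18V, 54.5 with T18VN and 36.4 with T18VNN, and at 47.4 CPM in A549. The highest HEK293T value was 7.49 times the lowest, and both belonged to unanchored primers. Against HEK293T T12, IGF2 was 1.57-fold lower in A549 (95% exact interval 1.2 to 2.08), whereas against the HEK293T median it was 1.57-fold higher, so its direction depends on the primer compared. Its reads cannot be told apart from those of the overlapping read-through gene INS-IGF2, which had the same count in 6 of the 7 libraries and 235 reads against 244 in the seventh, T18VN.

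H19 (chr11:2016406-2019105, minus strand, hg19), which lies 131236 bases from the IGF2 entry, was close to undetected. It had 10 reads (4.51 CPM) with T30, 1 read each with T12, T18 and T18VNN, 0 reads with T18V and T18VN, and 3 reads (2.00 CPM) in A549. Only the T30 library was above the floor of 3 reads, and no fold is given. MIR675, the microRNA inside H19, and MIR483, inside IGF2, had 0 reads in all 7 libraries.

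**Figure D2:**
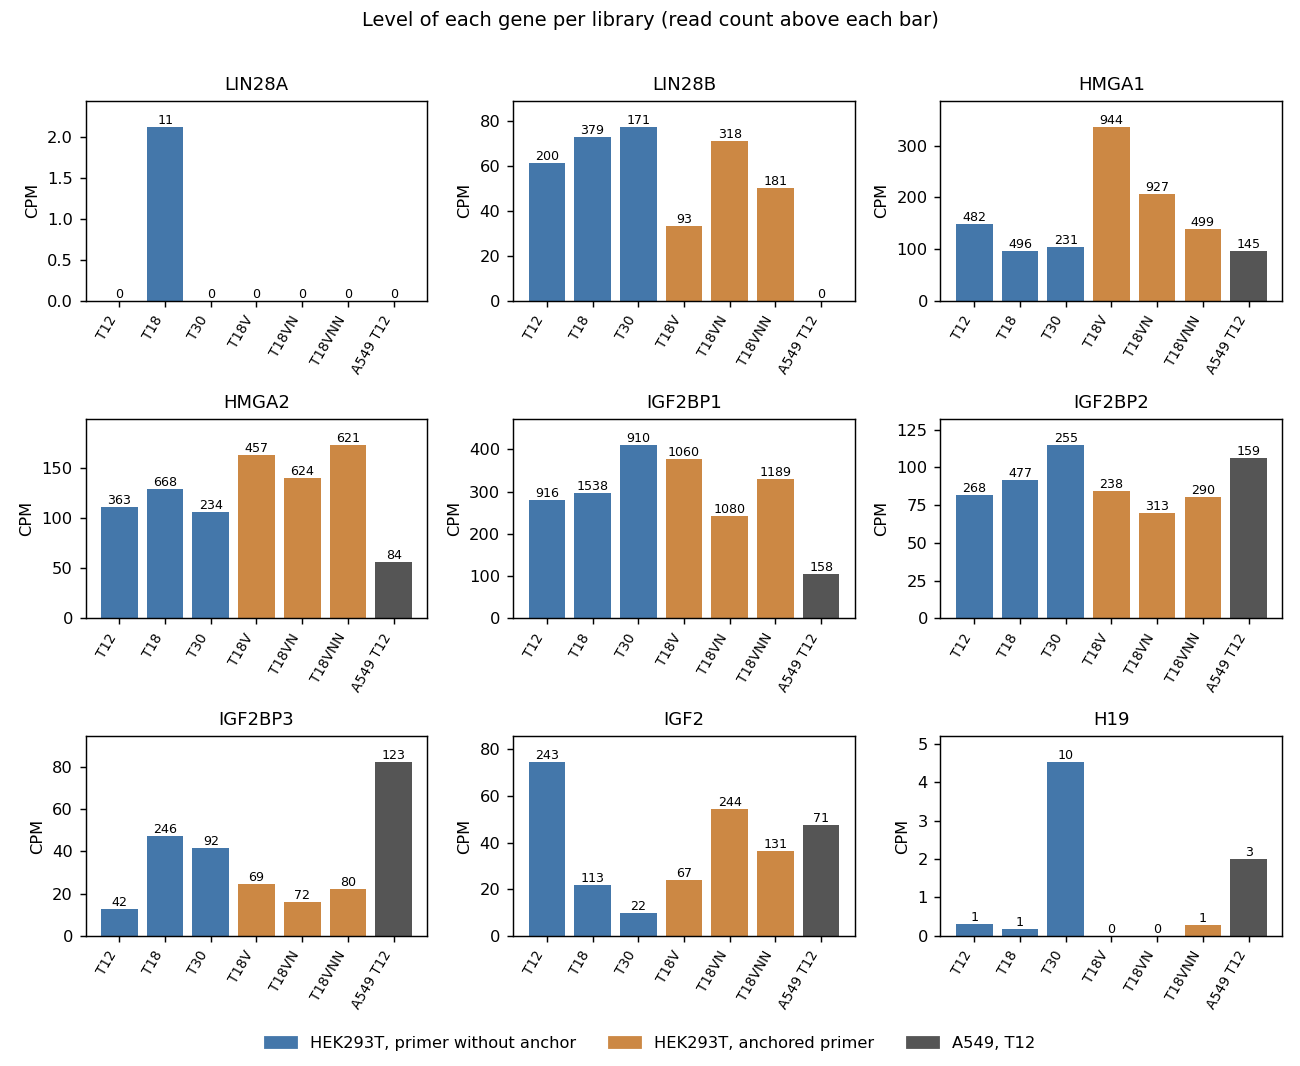
Level of each gene in CPM (vertical axis, starting at 0, scaled per gene) in the 6 HEK293T libraries and the A549 library, with the read count above each bar. LIN28B has 0 reads in A549, IGF2BP3 is highest in A549, and LIN28A and H19 are above 3 reads in 1 HEK293T library each.

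Of the 9 genes, 7 had at least 20 reads in the higher of the 2 T12 libraries and could be compared. On the log2(CPM + 1) scale, 2 of the 7 were at least 2-fold lower in A549 (LIN28B and IGF2BP1), against 29.2% of all 10145 genes compared, and 1 was at least 2-fold higher (IGF2BP3), against 31% of all genes. The other 4 differed by less than 2-fold, with HMGA2 at a log2 ratio of -0.97, just under the threshold. The same 2 genes were also below all 6 HEK293T libraries, as were 22.1% of all genes, and IGF2BP3 was above all 6, as were 26.4%. The median log2 ratio of the 7 genes was -0.64, also with LIN28B at its bound, and that of all genes was 0.02. HMGA2 passed 2-fold (log2 ratio -1.24) when the reads were scaled by trimmed mean of M-values (TMM), which also moved the median of all genes to -0.24.

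The same threshold was passed between primers within HEK293T. Against T12, 2 of the 7 genes differed at least 2-fold in T18 (IGF2BP3 higher and IGF2 lower, with 29.2% of all genes) and the same 2 in T30 (36.9%). In T18V, HMGA1 was higher and IGF2 lower (40%). No member passed in T18VN (36.9%), and IGF2 alone was lower in T18VNN (39.1%). LIN28B, HMGA2, IGF2BP1 and IGF2BP2 stayed within 2-fold of T12 with every HEK293T primer.

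**Figure D3:**
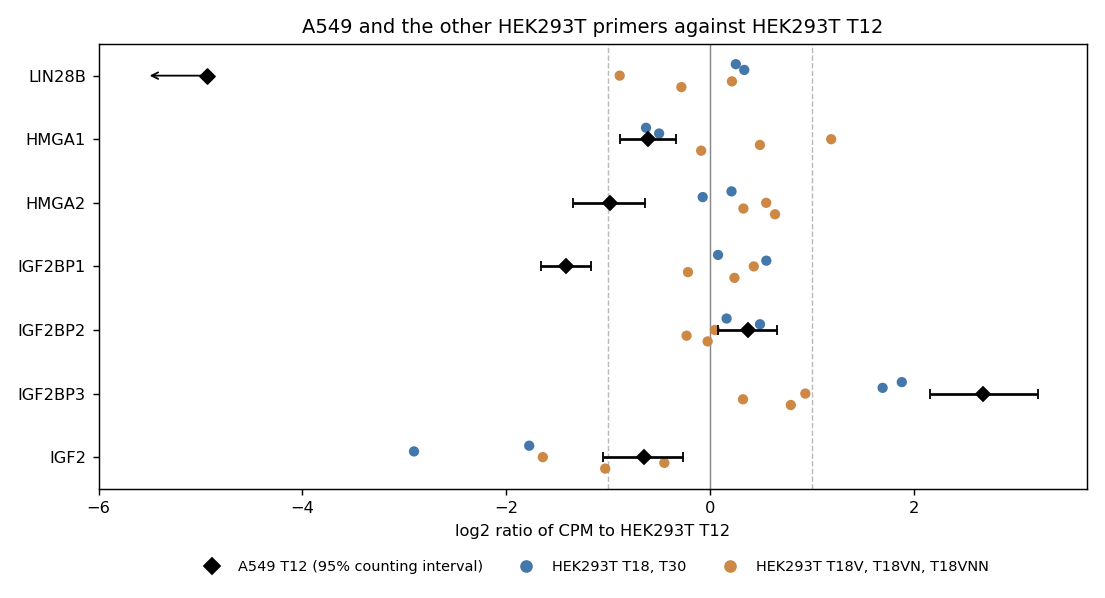
log2 ratio of CPM to the HEK293T T12 library for the 7 genes with enough reads; black diamonds are A549 with the 95% exact counting interval, coloured points are the other 5 HEK293T primers, dashed lines mark 2-fold. The LIN28B diamond with an arrow is a bound (at least 30.6-fold lower); A549 lies outside all the HEK293T points for LIN28B, HMGA2, IGF2BP1 and IGF2BP3.

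Over the 6 HEK293T primers the coefficient of variation, the SD divided by the mean, was 0.175 for IGF2BP2, 0.196 for IGF2BP1, 0.198 for HMGA2, 0.274 for LIN28B, 0.508 for IGF2BP3, 0.523 for HMGA1 and 0.648 for IGF2. Its median over these 7 genes was 0.274, against 0.454 for all 10887 genes tested and 0.330 for the 3239 genes with a mean of at least 50 CPM. The fold between the highest and lowest primer was 1.64 to 1.70 for HMGA2, IGF2BP2 and IGF2BP1, 2.33 for LIN28B, and 3.52, 3.68 and 7.49 for HMGA1, IGF2BP3 and IGF2.

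Anchored and unanchored primers were compared over the 3 libraries of each class with edgeR's quasi-likelihood test, in which different primers stand in for replicates. No member passed the test: of the 7 that passed the filter on low counts, 0 had a Benjamini-Hochberg adjusted p under 0.05, against 1.35% of all genes, and 0 had an unadjusted p under 0.05. DESeq2 called 0 as well, with 0 at an unadjusted p under 0.05. LIN28A and H19 did not pass the filter. HMGA1 had a mean of 227 ± 100.1 CPM (SD, n = 3) with anchored and 116 ± 27.9 CPM with unanchored primers. Its log2 fold change was 0.81 (SE 0.37), with an edgeR adjusted p of 0.321 and an unadjusted p of 0.0501.

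HMGA2 was the 1 gene of the 7 whose libraries did not overlap between the classes, which held for 23.6% of all genes. Its means were 158 ± 17.1 CPM with anchored and 115 ± 11.9 CPM with unanchored primers (SD, n = 3), and its log2 fold change was 0.29 (SE 0.29), with an edgeR adjusted p of 0.706. LIN28B had means of 51.5 ± 19 CPM anchored and 70.4 ± 8.24 CPM unanchored, a log2 fold change of -0.63 (SE 0.36) and an edgeR adjusted p of 0.444. The classes overlapped for LIN28B, since T18VN was above T12.

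The IGF2BP genes had negative estimates that did not pass the test. The edgeR log2 fold change was -0.23 (SE 0.31) for IGF2BP1, -0.47 (SE 0.31) for IGF2BP2 and -0.88 (SE 0.51) for IGF2BP3, with adjusted p of 0.788, 0.521 and 0.445. For IGF2 it was -0.03 (SE 0.61, adjusted p 0.988), and leaving out the T12 library turned it to 1.06. The median log2 fold change was -0.23 for the 7 genes and -0.002 for all genes tested.

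**Figure D4:**
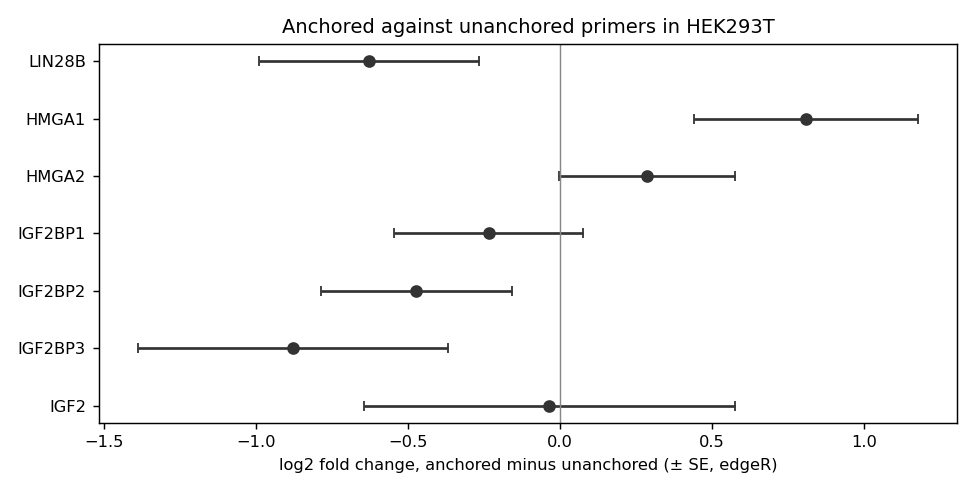
edgeR log2 fold change, anchored minus unanchored primers in HEK293T (points, with SE bars; 3 libraries per class), for the 7 genes that passed the filter. None had an adjusted p under 0.05; HMGA1 has the highest estimate (0.81) and IGF2BP3 the lowest (-0.88).

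Levels of different genes were compared only within a library, by the deposited FPKM, which divides by transcript length. HMGA1, with the shortest of the protein-coding transcripts (1958 bases), ranked first of the 9 in all 7 libraries, at 6.22 to 64.4 FPKM in HEK293T and 6.65 FPKM in A549. IGF2BP1, HMGA2 and IGF2BP2 held ranks 2 to 4 in all 6 HEK293T libraries, with IGF2BP1 second in 4 of them and HMGA2 second with T18VN and T18VNN. LIN28B held rank 5, or 6 with T12, at 1.64 to 3.62 FPKM. In A549 the order was HMGA1, IGF2BP2 (3.43 FPKM), IGF2BP3 (2.66), HMGA2 (1.82), IGF2BP1 (1.70) and IGF2 (1.23). IGF2BP1 was thus at rank 2 in HEK293T T12 (5.80 FPKM) and rank 5 in A549, and IGF2BP3 at rank 7 in HEK293T T12 (0.534 FPKM) and rank 3 in A549. HMGA2 and IGF2BP1 in A549 rest on 84 and 158 reads, so their order by FPKM is not resolved there. The coverage of HEK293T T12, T18, T30 and T18V lay mostly near the 3′ end, so reads need not grow with transcript length there. By CPM the order differed: IGF2BP1 was above HMGA1 in all 6 HEK293T libraries (280.5 against 148 CPM with T12). In A549, IGF2BP2 (106 CPM) and IGF2BP1 (105 CPM) were above HMGA1 (96.8 CPM). The part of transcript length in the FPKM ranks was not tested.

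Genes that act on let-7 were described from a list of 15 processing factors. Of 14 compared, 3 were at least 2-fold lower in A549 and 4 higher, with a median log2 ratio of -0.27. XPO5, which exports precursor microRNAs, was 2.68-fold lower, below all 6 HEK293T libraries. KHSRP, a let-7 processing cofactor, was 6.39-fold lower than in HEK293T T12 and TARBP2, the Dicer partner, 2.47-fold lower, but the A549 values of both lay inside the HEK293T range, which for KHSRP ran from 720 to 5286 CPM, and neither passed 2-fold against the HEK293T median. TUT7, a uridyl transferase that works with LIN28 on precursor let-7, was 5.75-fold higher (29 reads against 11), but only at a log2 ratio of 0.34 against the HEK293T median. The nuclease DIS3L2, which degrades uridylated precursors, had 20 reads in A549 against 2 with HEK293T T12, a ratio of 21.8 with a counting interval of 5.30 to 192. TENT2, an adenylating nucleotidyl transferase, had 28 and 3 reads, a ratio of 20.3 with an interval of 6.28 to 105. All 3 were above all HEK293T libraries, of which T12 was the lowest for each. Against the HEK293T median the log2 ratio was 1.22 for DIS3L2 and 1.97 for TENT2.

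The let-7 host transcripts did not share a direction. Of 5 listed, 4 were found and 3 compared, with 1 lower and 2 higher in A549 and a median log2 ratio of 1.44. MIRLET7BHG (chr22:46481877-46509808, plus strand, hg19), which overlaps the let-7a-3 and let-7b hairpins, was at 37.4 CPM in A549 (56 reads) and had no read with HEK293T T12, which makes it at least 40.7-fold higher in A549. Its highest HEK293T value was 2.12 CPM. HUWE1, a ubiquitin ligase whose gene holds the hairpins of miR-98 and one let-7f copy, lay above all 6 HEK293T libraries in A549, with 400 CPM against 147 CPM for T12 (2.72-fold). MIR99AHG, host of let-7c, was 3.31-fold lower than in HEK293T T12 (15.4 against 50.8 CPM) but inside the HEK293T range of 0.223 to 50.8 CPM, and against the median of the 6 HEK293T primers its log2 ratio turned to 1.02. With anchored primers its edgeR log2 fold change was -4.01 (SE 0.89), with an adjusted p of 0.0513. The adjusted p was 0.000168 with DESeq2 and 0.000468 with edgeR and no filter on low counts, so the call for MIR99AHG depends on the tool and filter. Host transcripts do not give the level of a mature microRNA.

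Of 22 other textbook let-7 targets, 17 were compared, with a median log2 ratio of -0.05. At 2-fold, 6 were lower and 5 higher in A549, against 29.2% and 31% of all genes. CDC25A, a cell cycle phosphatase, was 58.5-fold lower (6 against 765 reads) and ARID3B, an AT-rich DNA-binding protein, 13.5-fold lower. The cyclin CCND2 had 0 reads in A549 and was at least 13.6-fold lower. The insulin receptor substrate IRS2 was 51.9-fold higher, the matrix protein THBS1 at least 26.9-fold higher, and the receptor IGF1R 7.38-fold higher. All 6 lay outside the range of the HEK293T libraries. The THBS1 bound holds against HEK293T T12, which had 0 reads. With T18VN it was at 7.14 CPM, against 24.7 CPM in A549.

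The genes that receive and buffer the IGF2 signal were mostly higher in A549. Of 14 IGF receptors, receptor substrates and binding proteins, 12 were compared, 9 were at least 2-fold higher and 1 was lower, against 31% and 29.2% of all genes, and the median log2 ratio was 4.66 (4.72 with genes at 0 placed at their bound). IGFBP4, a secreted binding protein, stood at 3382 CPM in A549 against 11.9 CPM with HEK293T T12, a 283-fold difference. IRS1 was at least 177-fold and IGFBP3, the main serum carrier, at least 126-fold higher than in HEK293T T12, where both had 0 reads. With T18VNN, IRS1 was at 9.45 CPM, against 163 CPM in A549. The insulin receptor INSR was 2.37-fold lower than in HEK293T T12, but inside the HEK293T range and under 2-fold against the HEK293T median. IGF1R is shared with the list of let-7 targets, as are INSR and IRS2.

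Of 21 imprinted genes and imprinting factors, 20 were found and 11 compared, with 3 lower, 4 higher and a median log2 ratio of -0.07, and 5 had no read in any library. The paternally expressed PEG10 was at least 124-fold and the maternally expressed MEG3 at least 23.3-fold higher in A549, and both had 0 reads in all 6 HEK293T libraries. SNRPN had 410 reads in A549 against 3 with HEK293T T12, a ratio of 298 with a counting interval of 101.2 to 1451. The insulator protein CTCF, which binds between IGF2 and H19, was 4.35-fold lower and the adaptor GRB10 3.45-fold lower, both below all 6 HEK293T libraries. MAGEL2 was at least 6.58-fold lower than in HEK293T T12, but had 0 reads in 1 HEK293T library too.

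Other oncofetal genes were also divided. Of 14 listed, 13 were found and 5 compared, with 2 lower and 3 higher in A549 and a median log2 ratio of 2.54. The glypican GPC3 was at least 6.73-fold lower and the cadherin CDH3 had 2 reads in A549 against 32 with HEK293T T12, a ratio of 7.34 with an interval of 1.87 to 63.2. The trophoblast glycoprotein TPBG had 147 and 2 reads, a ratio of 160 with an interval of 43.6 to 1335. T12 was the lowest HEK293T library for TPBG, and against the HEK293T median its log2 ratio was 4.04. The tumour antigen PRAME was 5.88-fold higher, with a log2 ratio of 1.70 against the HEK293T median. PEG10 belongs to this list too.

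Other HMG genes, which share a name with HMGA1 and HMGA2, and other RNA-binding proteins were described as well. Of 8 other HMG genes, all compared, 4 were lower and 1 higher in A549, with a median log2 ratio of -0.69. The nucleosome-binding HMGN5 was at 2.00 CPM in A549 against 14.7 CPM with HEK293T T12 (3 and 48 reads, a ratio of 7.34 with an interval of 2.37 to 36.8). HMGN2 was 3.64-fold and HMGB3 2.87-fold lower, the last of them inside the HEK293T range, and HMGN4 was 2.83-fold higher. Among 14 KH-domain, cold-shock and related RNA-binding proteins, 2 were lower and 6 higher, with a median log2 ratio of 0.52. ELAVL1, a regulator of message stability, was 4.41-fold lower, and the poly(C)-binding PCBP1, PCBP2 and PCBP4 were 3.56-fold, 3.37-fold and 22.3-fold higher. PCBP2 was under 2-fold against the HEK293T median (log2 ratio 0.75), and the PCBP4 ratio rests on 41 against 4 reads, with an interval of 8.09 to 85.9. T12 was the lowest HEK293T library for PCBP4, and against the HEK293T median its log2 ratio was 2.68.

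In these 8 lists, 2 genes changed with anchored primers, HMGN5 and YBX3. HMGN5 was at 14.7, 24 and 18.5 CPM with T12, T18 and T30 and at 65.1, 84.8 and 95.4 CPM with T18V, T18VN and T18VNN. It rose with a log2 fold change of 1.92 (SE 0.36) and an edgeR adjusted p of 0.0301, and its span overlaps SH3BGRL. The cold-shock protein YBX3 rose from 58.5, 120 and 55.5 CPM to 210, 487 and 321 CPM, with a log2 fold change of 1.95 (SE 0.41) and an edgeR adjusted p of 0.0465. Leaving out any 1 of the 6 libraries ended the HMGN5 call (edgeR adjusted p 0.0635 to 0.144), and leaving out any but T18 ended that of YBX3 (0.0705 to 0.149, and 0.0424 without T18). This was 1 of 8 HMG genes and 1 of 14 RNA-binding proteins, against 1.35% of all genes. The other lists had no call: 0 of 15 processing factors, 0 of 2 host transcripts and 0 of 18 let-7 targets tested. The same held for 0 of 8 IGF receptors and binding proteins, 0 of 10 imprinted genes and factors and 0 of 7 oncofetal genes. The 2 lists with a call are thus picked by their calls.

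**Figure D5:**
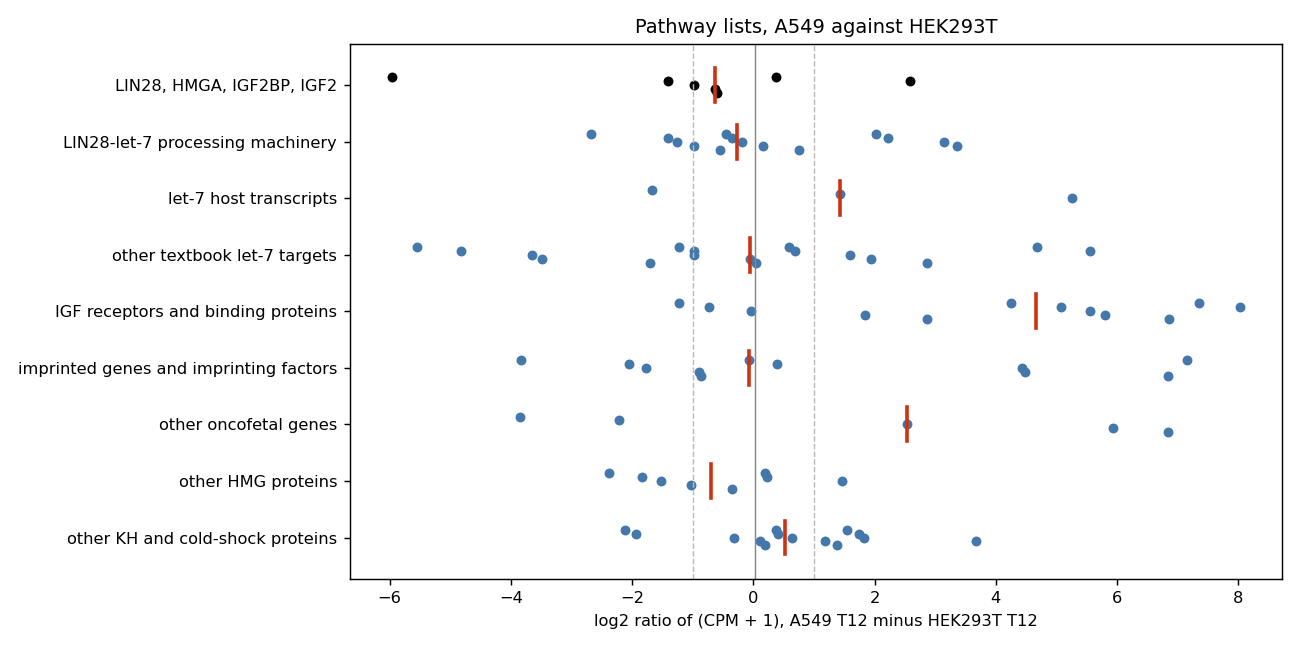
log2 ratio of (CPM + 1), A549 T12 minus HEK293T T12, for the compared members (black) and the compared genes of each pathway list (blue); red bars are medians, the solid line is the median of all genes (0.02) and dashed lines mark 2-fold. The IGF receptor and binding protein list has the highest median (4.66), and IGF2BP3 is the highest member at 2.58. LIN28B and other genes with 0 reads in 1 library are drawn at values set by the added 1 CPM, not at their bounds.

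Genes with the most similar pattern over the 7 libraries were found by the root mean square difference of log2(CPM + 1), each gene centred on its own mean, among 10486 genes with at least 100 reads in all. For LIN28B they were the neurofilament gene NEFL (0.29), ADAMTS1 (0.30) and SLC7A3 (0.32), each with 0 reads in A549. For IGF2BP1 they were GMDS (0.11), KCTD2 (0.13) and MRPS18B (0.13), and for HMGA2 UBE2K (0.09), UBE2D3 (0.09) and SIN3A (0.12). HMGA1 was nearest to THEM4 (0.19), SLC37A3 (0.20) and IDH3A (0.21). IGF2BP2 was nearest to GZF1 (0.07), ARMC8 (0.15) and SUPT4H1 (0.15), and IGF2BP3 to TAOK1 (0.24), B4GALNT4 (0.25) and EIF2AK2 (0.26). IGF2 was nearest to INS-IGF2, which shares its reads, then to C19orf44 (0.22) and YAF2 (0.31). The closest pair among the members themselves was HMGA2 and IGF2BP1 (0.36). For IGF2BP3 the nearest member was IGF2BP2 (0.68) and for LIN28B it was IGF2BP1 (1.60). These differences come from 7 libraries that share 1 cell line in 6 cases, so they describe the libraries only.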

How the data were processed

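The authors deposited raw read counts per RefSeq transcript with FPM, a signal scaled to the library total, and FPKM, in tables with the layout of RSeQC's FPKM_count, per the file headers. Coverage signal per percentile of the transcript body was deposited as well. FastQC 0.11.8, cutadapt 2.10, Trimmomatic 0.39, HISAT2 2.2.1 and SAMtools, and the builds GRCh37 and hg19, are named per the submitters' processing notes. The counting program's settings, annotation release, use of strand and handling of multiply matching reads are not given in the sources used here, so overlapping and antisense genes cannot be told apart.

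Of 61177 entries, 60133 (98.3%) had a RefSeq symbol, and the entry with most reads was kept per gene. Coordinates are 1-based. Sequences came from RefSeq (GRCh38.p14) and GENCODE release 29. CPM used reads on kept genes, the pseudocount was 1 CPM, and ratios carry exact conditional binomial 95% intervals (SciPy 1.17.1). A549 and HEK293T T12 were compared without a test, from 20 reads in the higher library and at 2-fold. Anchored and unanchored primers were compared by the quasi-likelihood test of edgeR 4.0.16 in R 4.3.3, after filterByExpr and TMM scaling, at an adjusted p under 0.05 over all genes, with DESeq2 1.42.0 as an alternative. The p-values measure the spread between libraries of different primers. Both procedures were tested on simulated data with less spread between libraries than these data had. Those runs check the procedures and do not measure power or coverage here.

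Named beside the members are, per list, up to 3 genes with the highest and lowest ratios past 2-fold, any list gene past the adjusted threshold, and per member with 100 reads the 3 most similar genes; 1 gene that the rule names is not reported here. MIR99AHG's adjusted p and the marker genes INA, GATA2, CDH2, LHX1, EPCAM and COL1A1 were given after values were seen. The members and lists were chosen with earlier results of these data known. The poly(T) length files of 2 libraries were not used here.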

Additional observations from a re-analysis of the deposited data

Results flagged for a closer look

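Among the 9 genes' CPM values over the 6 HEK293T libraries, 2 genes had a library that stood far from the other 5. For values spread continuously chance flags about 1 in 20 such groups, but that rate does not apply to genes at or near 0, where a few reads in 1 library are enough. LIN28A was at 2.12 CPM with T18 and at 0 with the other 5 primers. H19 was at 4.51 CPM with T30 and at 0 to 0.306 CPM with the other 5. The LIN28A value rests on 11 reads in the HEK293T library with most reads on genes, and the H19 value on 10 reads in the one with fewest.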

How the results depend on the processing

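The count of genes at least 2-fold lower in A549 was 2 and became 1 at a 4-fold threshold. It was 3, with HMGA2 added, with TMM or DESeq2 size factors, with the library total, and against the median of the 6 HEK293T primers. The count higher was 1 and became 2 with no minimum of reads, through H19. Over the alternatives, log2 ratios ran from -1.70 to -1.37 for IGF2BP1, 1.77 to 2.63 for IGF2BP3 and -6.95 to -3.53 for LIN28B, which has 0 reads in A549, so that these values move with the pseudocount and the scaling. The IGF2 ratio ran from -0.91 to 0.64. Of 48 list and marker genes named past 2-fold, 1 dropped under it with TMM (CDH2), 3 with the library total, 14 at 4-fold and 9 against the HEK293T median, where MIR99AHG reversed to 1.02. With anchored primers 0 of the 7 genes passed in any of 11 alternatives, and leaving out 1 library at a time gave 0 to 0. The IGF2 log2 fold change reversed to 0.11 without scaling, to 1.06 without T12 and to 0.17 without T18V, with -0.47 to 1.06 over the libraries left out; the cause was not tested. The median coefficient of variation was 0.205 to 0.307 when 1 library was left out. Of all genes, edgeR called 147, DESeq2 583, edgeR with no filter 556, and edgeR with 1 library left out 45 to 111. The median log2 change of all genes moved to 0.17 without scaling. No paired analysis was possible because HEK293T T12 had gene counts for replicate 1 only, A549 T12 for replicate 2 only, and the other primers have no replicate number. Depth limits LIN28A and H19, which were at or under 11 reads in every library, and A549, which had the fewest reads on genes.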
